A study of Mus musculus with 4 samples.

Results

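Among bone marrow monocytes of female mice, 130 of 7492 cells (1.74%) carried a high count of the surface MHC-II antibody tag while no transcript of the MHC-II chain genes H2-Aa, H2-Ab1 and H2-Eb1 was counted in them. These tag-high RNA-zero cells were found as follows. Barcodes with over 200 detected genes, under 5% mitochondrial UMIs (unique molecular identifiers, counts of distinct RNA or tag molecules) and at least 70% of hashtag UMIs on 1 hashtag were kept. The 10% of these cells with the highest count of the tag I-A(I-E)(MHC-II), 72 UMIs or more, formed the tag-high cells, 756 in number. Of these, 130 had 0 UMIs of the 3 chain genes together and 626 had at least 1. Below the cutoff, 4229 cells were also RNA-zero and 2507 were RNA-positive. The tag and these 3 genes chose the cells, so their levels below are a description and were not tested. Shares of cells that rest on this choice were compared between mice.

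The cells came from 5 young (15 weeks) and 5 old (26.5 months) wild-type C57BL/6 female mice and had been sorted as Ly6G-, CD11b+, CD115+ and Ly6C-high, which is the phenotype of classical monocytes. Each mouse carried its own hashtag, an antibody with a DNA barcode, and all 10 were pooled into a single 3' library, so the mouse is the replicate and the library is shared. Hashtag barcodes are shown for the 5 mice that held at least 5 tag-high RNA-zero cells, because they tie each cell to its animal. These mice entered the paired tests of the main setting, and some alternatives used fewer or more mice. All bases of a barcode are read, so none is capitalised.
young 4: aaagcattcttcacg
young 5: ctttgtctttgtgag
old 1: tatgctgccacggta
old 4: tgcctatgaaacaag
old 5: ccgattgtaacagac

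MHC class II molecules are pairs of an alpha and a beta chain that display peptides from engulfed material to CD4+ T cells. The I-A molecule is made from H2-Aa and H2-Ab1, H2-Eb1 encodes the beta chain of I-E, and the invariant chain Cd74 and the peptide exchanger H2-DM prepare the molecules in the endosome. Their genes are switched on together by the coactivator Ciita, which is held at their promoters by the factors RFX and NF-Y. In monocytes the RNA is found mostly in a subset that resembles dendritic cells, and a surface protein can outlast its RNA.

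The promoters of the chain genes used in the selection are shown for the 100 bases before the transcription start, from RefSeq on GRCm38.p6, 5' to 3' on the strand of the gene. Capitals mark matches to CCAAT or to its reverse complement ATTGG, the letters that NF-Y binds. H2-Aa lies on the minus strand at chr17:34287824-34287923 and H2-Eb1 on the plus strand at chr17:34305767-34305866.
H2-Aa: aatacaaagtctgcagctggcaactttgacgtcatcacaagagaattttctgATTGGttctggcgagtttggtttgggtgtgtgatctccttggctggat
H2-Eb1: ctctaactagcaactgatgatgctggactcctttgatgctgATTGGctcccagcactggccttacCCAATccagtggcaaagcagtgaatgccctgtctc
H2-Aa held 1 match, 48 bases before the start, and H2-Eb1 held 2, the first 59 bases before it. Of 32851 mouse promoters, 18.9% held these letters in a window of the same length. H2-Ab1 was the third chain gene of the rule.

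There was no gap in tag counts at the cutoff. At the cutoff itself, at 72 tag UMIs, stood 5 of the RNA-zero cells, and 4 stood just below it at 71. In the 10 UMIs from 72 to 81 there were 46 of the 130 cells, against 73 RNA-zero cells in the 10 UMIs below. A count of 200 UMIs or more was reached by 6 of the cells. The median tag count was 89.5 in the tag-high RNA-zero cells (highest 414), 20 in the RNA-zero cells below the cutoff and 139 in the RNA-positive tag-high cells (highest 4809). Chain gene RNA in the tag-high cells ran from none to much. A total of 63 cells had 1 UMI of the 3 genes, 20 had 2, 26 had 3 to 5, 63 had 6 to 20 and 454 had 21 or more.

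**Figure D1:**
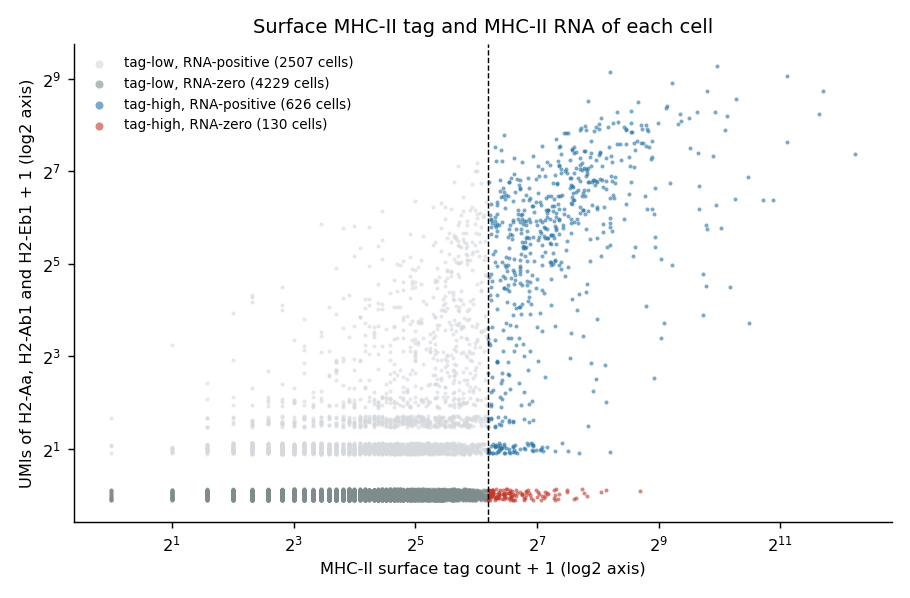
Surface MHC-II tag UMIs per cell against the summed UMIs of H2-Aa, H2-Ab1 and H2-Eb1 in the 7492 female cells, both on log axes. The 130 tag-high cells at 0 chain UMIs run from the cutoff of 72 tag UMIs to 414, with a median of 89.5, while tag-high cells with chain RNA reach 4809.

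All 10 mice had tag-high RNA-zero cells, but a few mice held most of them. There were 41 in young 4, 35 in old 4, 22 in old 5, 13 in young 5 and 6 in old 1, and the other mice had 1 to 4 each. As a share of all RNA-zero cells of the mouse, they were 12.5%, 1.33%, 0.159%, 5.85% and 9.13% in old 1 to old 5 and 0.993%, 0.836%, 1.18%, 3.41% and 2.70% in young 1 to young 5. The ages overlapped, and the means were 5.79% ± 5.19 in old and 1.82% ± 1.16 in young mice (SD, n = 5 each, two-sided exact permutation test p = 0.151, adjusted over 3 shares 0.226). Of all kept cells they were 1.91% ± 1.81 in old and 1.22% ± 0.765 in young mice (exact permutation p = 0.460, adjusted 0.460). The direction of both shares turned with a cutoff set within each mouse, at the 10% of its cells highest for the tag, an alternative chosen after the data were seen. The share of RNA-zero cells was then 2.82% in old and 7.35% in young mice, and the share of all cells 1.53% and 4.93% (each exact permutation p = 0.0079, adjusted 0.0079). That cutoff makes about 10% of the cells of each mouse tag-high. The share of all cells then follows the RNA-zero share of tag-high cells, given below, and is not a separate result.

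Read against the other tag-high cells, the ages did not overlap. RNA-zero cells were 2.01%, 8.82%, 3.70%, 25.7% and 25.3% of the tag-high cells in old 1 to old 5. In young 1 to young 5 they were 40%, 27.3%, 33.3%, 35.3% and 41.9%. The shares of young 1, young 2 and young 3 rest on few cells. These mice had 4, 3 and 2 RNA-zero beside 6, 8 and 4 RNA-positive tag-high cells, so single cells could close the gap between the ages. Every young mouse was above every old mouse, with means of 35.6% ± 5.79 and 13.1% ± 11.6 (SD, n = 5 each), an exact permutation p of 0.0079, which is the smallest that 5 against 5 mice can give, and an adjusted p of 0.0238. The adjusted p was 0.238 when cells with RNA of another lineage, described below, were left out, 0.143 with HTODemux singlets only, 0.119 among cells of 5000 to 15000 UMIs, 0.310 and 0.0952 with the 5% and 20% of cells highest for the tag, and 0.369 with the tag as a share of the 6 tags. It was 0.0476 without any 1 mouse and with each cell thinned to 5000 UMIs, and 0.0079 with the cutoff within each mouse, and young mice had the higher mean in each of these settings. The RNA-zero share of all cells separated the ages as well, at 65.5% to 69.96% in the young and 9.54% to 61.1% in the old mice, so the gap was not shown to be particular to tag-high cells. Old 1 stood apart in this base: 9.54% of its cells were RNA-zero, against 48.2% or more in each of the others, and 59.2% of its cells were tag-high.

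**Figure D2:**
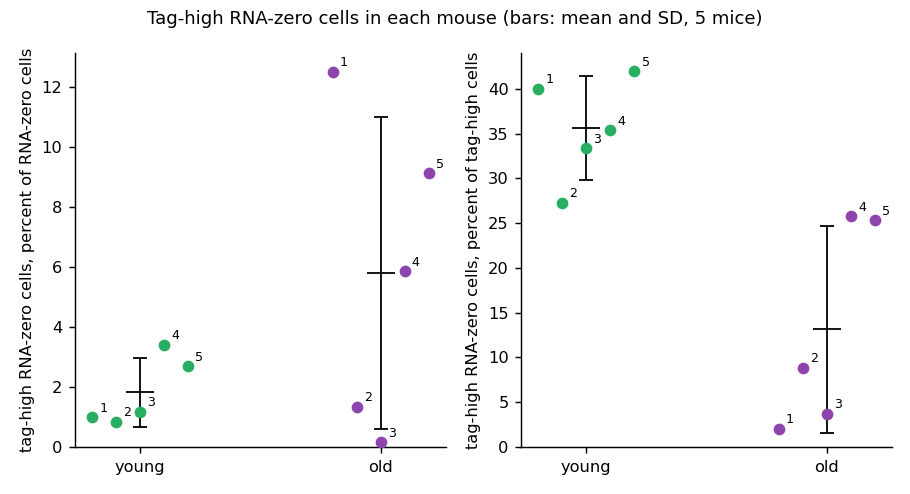
Tag-high RNA-zero cells in percent of the RNA-zero cells (left) and of the tag-high cells (right) of each mouse, numbered by replicate, for 5 young and 5 old mice, with bars at the mean and SD of each age. On the right all 5 young mice, at 27.3% or more, sit above all 5 old mice, at 25.7% or less. The points of young 1, young 2 and young 3 rest on 4, 3 and 2 of these cells. On the left the ages overlap.

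The tag-high RNA-zero cells were sequenced more deeply than RNA-zero cells below the cutoff, which bears on every 0 in them. Median gene UMIs per cell were 17276, 13312, 16266, 13255 and 15291 in old 1, old 4, old 5, young 4 and young 5. In the RNA-zero cells below the cutoff of the same mice they were 13866.5, 10151, 13924, 8747.5 and 8329. The tag-high cells were deeper in 5 of 5 mice, by a mean of 0.48 ± 0.26 on the log2 scale (SD, n = 5, a ratio of 1.40, two-sided exact sign-flip permutation p = 0.0625). With 5 pairs no smaller p can be reached. Over all cells the median was 13474.5 UMIs, against 9373 in the RNA-zero cells below the cutoff, 10499 in the RNA-positive tag-high cells and 12393 in RNA-positive cells below it. The shallow tail was nonetheless longer than in the RNA-positive tag-high cells, with 7 of 130 against 4 of 626 cells under 5000 UMIs.

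The other antibodies of the panel were also higher in these cells. Flt3 is a receptor of progenitors and of the dendritic cell lineage, CD115 is the M-CSF receptor, Ly6C and CD11b mark the monocyte sort, and CD11c is an integrin of dendritic cells and some monocytes. The median Flt3 tag count in old 1, old 4, old 5, young 4 and young 5 was 9.5, 16, 5, 9 and 11 UMIs in the tag-high RNA-zero cells. In the RNA-zero cells below the cutoff of these mice it was 3, 7, 3, 2 and 2 UMIs, lower in each mouse but overlapping between mice. The mean Flt3 tag was 2.86 times that of the RNA-zero cells below the cutoff (log2 difference 1.52 ± 0.43, SD, n = 5).

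The CD11c tag, at medians of 7 to 12 UMIs in these 5 mice against 2 to 4, was 2.72 times as high (1.44 ± 0.31). The CD11b tag had medians of 56.5, 58, 68.5, 94 and 92 UMIs against 47.5, 38, 42, 42 and 42, and was 1.74 times as high (0.80 ± 0.35). CD115 and Ly6C differed less, at ratios of 1.41 (0.49 ± 0.31) and 1.31 (0.39 ± 0.21). All 5 tags were higher in 5 of 5 mice, each with an exact sign-flip permutation p of 0.0625 and an adjusted p of 0.0625. With the 20% of cells highest for the tag, 9 mice entered, and the adjusted p was 0.0047 for Flt3, Ly6C, CD11b and CD11c (9 of 9 mice higher) and 0.043 for CD115 (7 of 9), by the same exact permutation test. With the cutoff within each mouse, 9 mice entered as well. The adjusted exact permutation p was then 0.0059 for Flt3, CD11b and CD11c (9 of 9), 0.0094 for Ly6C (8 of 9) and 0.066 for CD115 (7 of 9).

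The tags are not independent of each other, because they were counted in the same cells. The total of all hashtags, which marks the animal and no cell type, was 3.20 times as high (1.68 ± 0.95, higher in 5 of 5 mice, exact permutation p = 0.0625), with 1 cell at 33981. The ratio was 1.72 from medians and 1.80 in the HTODemux setting, whose cells were chosen anew. With cells chosen by the MHC-II tag's share of all 6 surface tags, the CD115 and Ly6C log2 differences turned to -0.040 and -0.63. In that setting 4 mice entered. CD115 was at -0.35 among the 5% of cells highest for the tag, where 3 mice entered. Across the 130 cells, Spearman's rho with the MHC-II tag was 0.33 for Flt3, 0.40 for CD11c, 0.28 for the hashtag total and -0.19 for CD115, on counts that share library and cell. Across the RNA-zero cells below the cutoff it was 0.62, 0.54, 0.36 and 0.17 in the same order. The part of antibody load in these differences was not tested.

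Against the RNA-positive tag-high cells the differences were smaller, and with 5 mice no p under 0.0625 could be reached (exact permutation). The log2 differences were 0.45 for Flt3 (higher in 5 of 5 mice), 0.13 for CD115, 0.19 for Ly6C (5 of 5), -0.11 for CD11b, 0.07 for CD11c and 0.84 for the hashtag total. Adjusted p ran from 0.1875 to 0.875 (exact sign-flip permutation, 5 mice). Without old 1 the CD11c difference was -0.071 and without young 5 it was -0.075. The MHC-II tag itself was a median of 11.1% of the 6 tags in the tag-high RNA-zero cells, 3.43% in RNA-zero cells below the cutoff and 20.5% in RNA-positive tag-high cells.

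**Figure D3:**
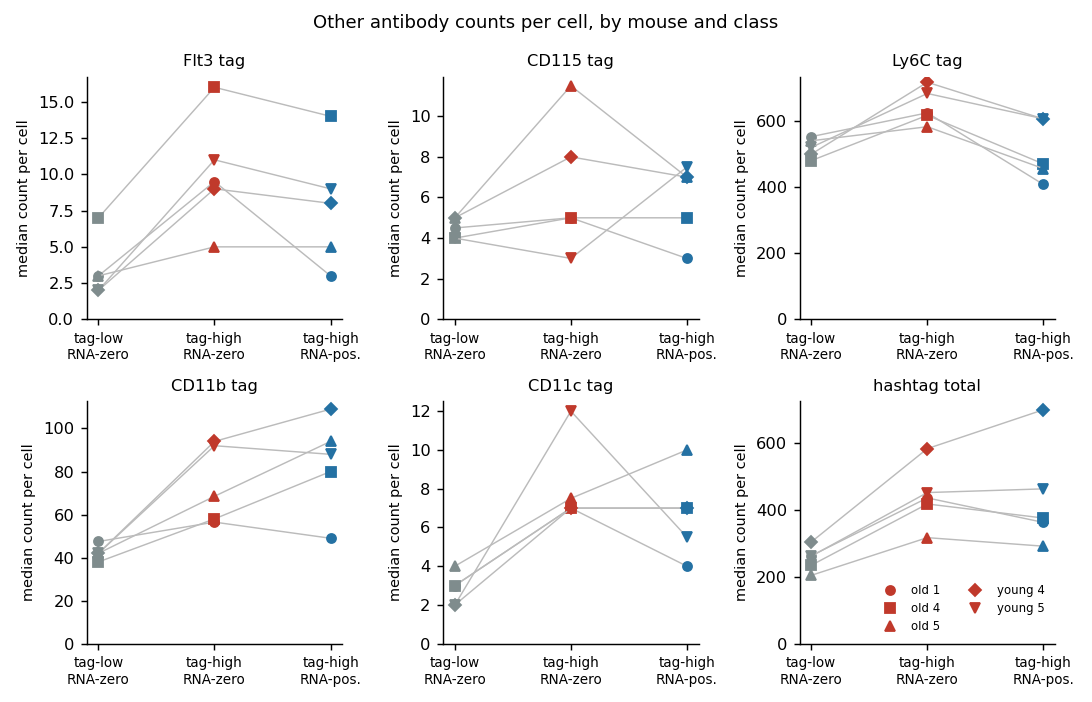
Median count per cell of the 5 other surface tags and of the hashtag total in RNA-zero cells below the cutoff, tag-high RNA-zero cells and RNA-positive tag-high cells, 1 symbol for each of 5 mice, joined by lines. By medians 5 of the 6 are higher in the tag-high RNA-zero cells than in the RNA-zero cells below the cutoff in every mouse and CD115 is higher in 4 of 5, with ratios of means from 1.31 for Ly6C to 3.20 for the hashtag total.

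Doublet calls from the hashtags were also more frequent. HTODemux, which calls a cell a doublet when 2 hashtags are over their background, called 60 of the 130 cells (46.2%) doublets, against 9.25% of RNA-zero cells below the cutoff and 34.5% of RNA-positive tag-high cells. The cells stayed in because the rule asks only for a leading hashtag of 70%. The median share of the leading hashtag was 91.9% in the tag-high RNA-zero cells, 91.5% in RNA-zero cells below the cutoff and 91.2% in RNA-positive tag-high cells. No caller on RNA was run.

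A sizeable part of the tag-high RNA-zero cells carried T or NK cell RNA. Of the 130, 28 (21.5%, exact 95% interval 14.8% to 29.6%) had a UMI of at least 3 of the 8 measured T or NK cell genes, against 21 of 4229 RNA-zero cells below the cutoff (0.497%) and 18 of 626 RNA-positive tag-high cells (2.88%). The marked cells were 9 of 41 in young 4, 5 of 35 in old 4, 3 of 4 in young 1, 3 of 3 in old 2, 3 of 13 in young 5, 2 of 3 in young 2, 2 of 22 in old 5 and 1 of 6 in old 1, and the single cell of old 3 and both of young 3 were not marked. Seen from the other side, 28 of 49 marked RNA-zero cells (57.1%, interval 42.2% to 71.2%) were at or above the tag cutoff, against 102 of the other 4310 (2.37%, interval 1.93% to 2.87%). These intervals cover counting error only. The share of marked RNA-positive tag-high cells varied by mouse, at 0.685%, 1.98%, 1.54%, 10.7% and 11.1% in old 1, old 4, old 5, young 4 and young 5, and old 1 gave 292 of the 626. Beside these stood 16.7%, 14.3%, 9.09%, 21.95% and 23.1% of the tag-high RNA-zero cells of the same mice, the higher share in each.

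The marked cells held T cell and monocyte RNA together. The list genes chose these cells, so their counts there are a description. Of the CD3 chains of the T cell receptor complex, Cd3g was counted in 28 of 28, Cd3d in 27 and Cd3e in 26. The chemokine Ccl5 was counted in 25, at a median of 28 UMIs, and of the NK cell genes Klrb1c was counted in 11 and Ncr1 in 1. Of genes outside the list, the cytokine receptor Il7r was counted in 20, the T cell transcription factors Tcf7 and Lef1 in 18 each, Cd8a in 11, Cd4 in 1 and the granule protein gene Nkg7 in 27. In the other 102 cells, Il7r, Tcf7, Lef1, Cd8a and Cd4 were counted in 0 and Nkg7 in 18, at a median of 13605.5 UMIs per cell against 13437.5 in the marked cells.

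In the same 28 marked cells, the monocyte genes Ly6c2 and Lyz2 were counted in all, Lyz2 at a median of 314 UMIs, Ccr2 in 26, Fn1 in 24 and Csf1r in 21. The sum of 7 genes of the monocyte sort was a median of 398.5 UMIs in the marked cells and 436.5 in the other 102, and 3 of 28 and 1 of 102 cells were under 50. The marked cells also had a higher median MHC-II tag (134 against 86.5 UMIs) and hashtag total (1283 against 430.5), and a lower CD11b tag (47 against 89.5). HTODemux called 14 of the 28 (50%) and 46 of the 102 (45.1%) doublets. Whether more than 1 cell shared these barcodes was not tested.

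**Figure D4:**
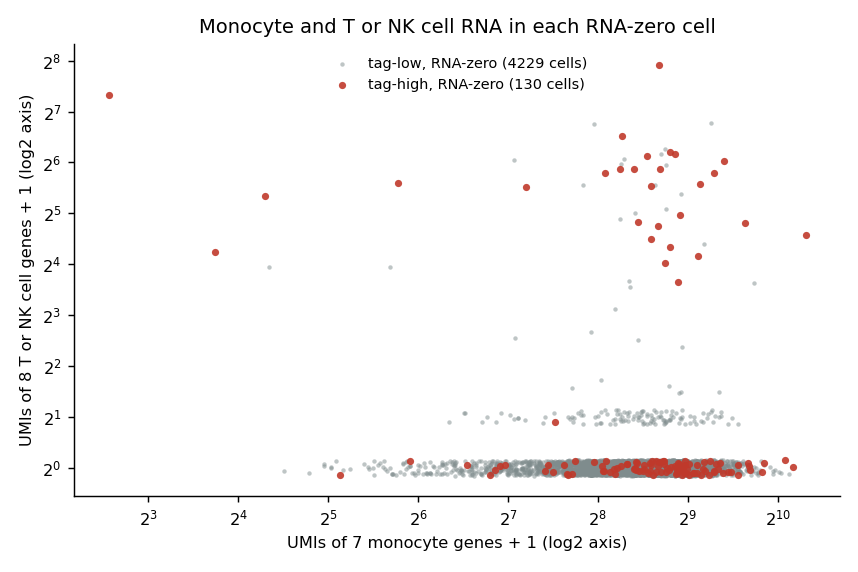
UMIs of 8 T or NK cell genes against UMIs of 7 monocyte genes in each RNA-zero cell, on log2 axes after adding 1, for the 130 tag-high cells and the 4229 below the cutoff. The 28 marked tag-high cells reach a median of 45 T or NK cell UMIs at a median of 398.5 monocyte UMIs, and the other 102 reach at most 1 T or NK cell UMI.

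RNA of other lineages was rarer. The macrophage list marked 4 of the 130 cells and the conventional dendritic cell list 2, so that 33 (25.4%) were marked by any list, against 54 of the RNA-zero cells below the cutoff (1.28%) and 77 of the RNA-positive tag-high cells (12.3%). Summed per class, the T or NK cell list was at 792 CPM (UMIs scaled to the same library total in each class) in the tag-high RNA-zero cells, of which Ccl5 gave 539, against 21.5 CPM below the cutoff and 116 CPM in RNA-positive tag-high cells. The B cell list was at 32.6 CPM, of which Cd79b gave 32.1, and Ms4a1, Ebf1 and Pax5 were at 0. The conventional dendritic cell list was at 56.3 CPM, of which Wdfy4 gave 38.7, and its genes Xcr1, Clec9a and Zbtb46 were at 0. It was at 51.8 CPM in RNA-zero cells below the cutoff and at 74.5 CPM in RNA-positive tag-high cells. The sort markers Ly6c2, Csf1r and Itgam did not pass the test between the classes (log2 fold changes -0.15, 0.26 and 0.02 against RNA-zero cells below the cutoff).

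Gene by gene, 33 genes were called between these cells and the RNA-zero cells below the cutoff. Ccl5, Cd3e and Cd3g of the T or NK cell list were among the 10 with the largest positive fold changes. Counts were summed per mouse and class in the 5 mice with at least 5 cells of each (117 against 2455 cells) and compared with the quasi-likelihood test of edgeR with the mouse as a block, Benjamini-Hochberg adjusted over 6193 genes. In this fit 32 genes were higher (0.517% of those tested) and 1 was lower (0.0161%), and 399 had an unadjusted p under 0.05. Leaving out old 1 gave 81 calls and leaving out young 5 gave 20.

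Cd3e stood at 27.9, 16, 19.2, 49.8 and 64.4 CPM in old 1, old 4, old 5, young 4 and young 5, and at 0 to 2.19 CPM in the RNA-zero cells below the cutoff of these mice, so the classes did not overlap. It was among the genes called, but its fold is set by the few UMIs of the comparison cells and is not given. Ccl5 was at 594, 438, 46.7, 264 and 451 CPM against 0.825 to 18.6 CPM, again with no overlap. Of the 10 genes of the T or NK cell list 3 were tested, these and Cd3g. Genes near 0 in the comparison cells enter the test through the cells where they are high, which fixes their direction, so their calls are a description. The other 7 of the 10 largest changes were the T cell adaptor Skap1, the lymphocyte GTPases Gimap3 and Gimap4, the lymphocyte protease Ctsw, Ptprcap, the receptor Klrk1 and the survival gene Bcl2. S100a9, a calcium-binding protein of neutrophils and monocytes, was the single gene lower (log2 fold change -1.45 ± 0.34, edgeR adjusted p = 0.041, lower in 4 of 5 mice). It was not called once cells of other lineages were left out. Here and below, ± beside a gene's log2 difference is a standard error derived from the edgeR test statistic, not an SD over mice.

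The MHC-II machinery held 1 call in this comparison. Both classes were chosen to hold no chain gene UMI. A lack of difference in genes switched on with the chain genes was therefore in part set by the choice. Of 24 genes of the MHC-II pathway list, 16 were tested, 1 was higher and 0 were lower. Of all genes tested, 0.517% were higher and 0.0161% lower. The list had a median log2 fold change of 0.07 beside 0.0099 for all genes tested. Cd74 was at 241, 178, 283, 199 and 182 CPM in the 5 mice and at 272, 170, 177, 136 and 164 CPM in the RNA-zero cells below the cutoff. These ranges overlapped (log2 fold change 0.33 ± 0.12, edgeR adjusted p = 0.50). H2-DMb1, the beta chain of the peptide exchanger, was at 82.0 to 148 CPM against 90.6 to 133 CPM (0.02, adjusted p = 0.99), and the alpha chain H2-DMa was at -0.17 (0.87). Ifi30, which reduces disulfide bonds in the endosome, was at -0.35 (0.16).

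Of the remaining pathway genes, Ciita was counted in 2 of the 130 cells (1.54%), in 22 of 4229 RNA-zero cells below the cutoff (0.520%) and in 151 of 626 RNA-positive tag-high cells (24.1%). The one gene called was AW112010, an interferon-inducible lincRNA, at 0.94 ± 0.19 (edgeR adjusted p = 0.012). Without the cells of other lineages it stood at 0.06 (adjusted p = 0.99). Of the genes of the surface panel, 3 of 6 were tested and 0 were called, with Csf1r, Ly6c2 and Itgam as given above.

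MHC class I genes held 3 of the calls. Of 17 genes tested, 3 were higher, where 0.517% of all genes were, and the list median was 0.07 beside 0.0099 for all genes. These were class I heavy chains, H2-Q7 (log2 fold change 2.02, edgeR adjusted p = 1.9e-07), H2-Q6 (2.19) and H2-K1 (0.45). H2-Q7 was at 241, 114, 148, 124 and 152 CPM in old 1, old 4, old 5, young 4 and young 5. In the RNA-zero cells below the cutoff of these mice it was at 102, 42.1, 54.2, 14.1 and 19.2 CPM. Without cells of other lineages, H2-Q7 was at 1.10 (adjusted p = 0.018), while H2-Q6 was at 1.30 (0.31) and H2-K1 at 0.23 (0.51). H2-Q7 (chr17:35439155-35443773, GRCm38) and H2-Q6 (chr17:35424850-35430055) are near-identical neighbours, so their counts may be split uncertainly.

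Without the 33 cells of other lineages a different set of genes led. HTODemux called 43 of the 97 cells left (44.3%) doublets, against 9.10% of the RNA-zero cells below the cutoff left. Their median gene UMIs per cell were 13386 against 9323. Old 1 then had under 5 cells, so 4 mice entered and 8593 genes were tested, of which 27 were higher (0.314%) and 2 lower (0.0233%). Of these calls 15 were shared with the fit on all the cells, 45.5% of its 33 calls. The choice to leave these cells out was among the alternatives, and the genes were named after their values were seen.

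Genes of mitosis were among those higher. Ube2c, a ubiquitin ligase component that degrades mitotic proteins, was at 720, 769, 682 and 1391 CPM in old 4, old 5, young 4 and young 5 without cells of other lineages, against 525, 413, 476 and 449 CPM in RNA-zero cells below the cutoff. The classes did not overlap in these mice, and its log2 fold change was 0.83 ± 0.12 (edgeR adjusted p = 4.1e-04, higher in 4 of 4 mice). Ccnb1, a mitotic cyclin, was at 0.88, Cenpf, a centromere protein, at 0.97 and Cdc20, an activator of mitotic exit, at 0.80. Of the G2/M list, 4 of 19 genes were higher, where 0.314% of all genes were. In this list 17 genes had a positive fold change, and the median was 0.35 beside -0.0045 for all genes. With cells of other lineages kept, the G2/M median was 0.07, and it turned with the cutoff. Among the 5% of cells highest for the tag it was -0.95 with 10 genes lower. That fit held only 7, 7 and 5 tag-high RNA-zero cells, in old 4, old 5 and young 4. Among the 20% highest the median was -0.21 with 3 lower, and with the tag as a share of the 6 tags -0.13. In old 1, with 6 cells, the G2/M genes summed to 7030 CPM against 10337 CPM below the cutoff, and Ube2c was at 529 against 524 CPM. The S phase list had 0 of 10 genes with a positive fold change and 0 called, with a median of -0.34.

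Of the Apoe-high list, 3 of 10 genes were higher, where 0.314% of all genes were. Apoe, an apolipoprotein, was at 365, 307, 549 and 837 CPM in old 4, old 5, young 4 and young 5, against 291, 134, 383 and 373 CPM. It was at 18.6 against 86.9 CPM in old 1, with 6 cells. In the fit without other lineages it rose by 0.87 ± 0.13 (edgeR adjusted p = 4.1e-04, 4 of 4 mice), and Pla2g7, a secreted phospholipase that acts on oxidised lipids, rose by 1.17 ± 0.18 (adjusted p = 5.5e-04). Sirpb1c was the third gene called, and all 10 genes of the list had a positive fold change with a median of 0.51. Of the mature Ly6C-high list 0 of 10 genes were called (median 0.085), and of the Ly6C-low list 1 of 5, the fractalkine receptor Cx3cr1, at 0.70. Among granule genes, Elane, the neutrophil elastase, was at 0.90 with 3 of 4 mice higher, yet at -1.74 among all tag-high RNA-zero cells of 5000 to 15000 UMIs. Of the list for neutrophil-like monocytes, 3 of 10 genes were higher, with a median of 0.37. Among the 5% highest for the tag (3 mice, other lineages kept), 1 was higher and 6 were lower, with a median of -1.33. Camp, a neutrophil granule peptide, fell by 2.71 (adjusted p = 5.5e-04) and the galectin Lgals1 fell by 0.42 (0.029). Of the neutrophil list 3 genes were tested, of which 1, Camp, was lower and 2 had a positive fold change, with a median of 0.043. Against RNA-positive tag-high cells the Apoe-high list went the other way, as given below.

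The contrast with RNA-positive tag-high cells was made by the rule, which sorted these classes by MHC-II RNA, so that its MHC-II genes are a description. Of 6031 genes, 20 were higher (0.332%) and 76 lower (1.26%) in the tag-high RNA-zero cells (117 against 551 cells, 5 mice). Without a given mouse the calls numbered 11 (old 4), 26 (old 5), 56 (young 4) or 186 (young 5). Cd74 was at 178 to 283 CPM in the tag-high RNA-zero cells and at 7395, 9460, 9160, 8100 and 4883 CPM in RNA-positive tag-high cells, a log2 fold change of -5.27. Of the MHC-II pathway list, 9 of 17 genes were lower, among them H2-DMb1 (-2.14), the lectin Cd209a (-3.65), Tmem176b (-1.65) and the cathepsin Ctss (-0.62), and the list median was -0.62 beside 0.0078 for all genes.

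Genes of other lists were called too, where 1.26% of all genes were called lower. Of the interferon-stimulated list, 5 of 8 genes were lower, led by the chemokine Cxcl10 (-3.86) and by Ifit1 (-1.85), and of the interferon-gamma inducible list 3 of 9 were lower (Gbp2, Gbp3 and Irf1). Of the Fc receptors, which bind antibody, 3 of 5 were lower (Fcgr1, Fcgr2b and Fcgr4), with a list median of -0.79. Of the Apoe-high list 6 of 10 genes were lower, Apoe among them, and 0 had a positive fold change, with a median of -0.65. Csf1r, which encodes CD115, was lower as well (-0.50, edgeR adjusted p = 0.048). Higher were Cd3d, Cd3e and Cd3g at 2.01, 1.99 and 2.05, and the T cell kinase Lck at 1.95. Of the G2/M list 5 of 19 genes were higher, where 0.332% of all genes were. Without cells of other lineages, 30 of 5314 genes were higher (0.565%) and 39 lower (0.734%), and 10 of 18 G2/M genes were higher, while Ctss (adjusted p = 0.052), Isg15 (0.086), Fcgr1 (0.11) and Csf1r (0.16) were no longer called and Cxcl10 was not tested. The interferon-stimulated list then had 3 of 7 genes called lower, the Apoe-high list 4 of 10 and the Fc receptors 1 of 4, Fcgr2b. The G2/M genes included Mki67 (0.96), a marker of cycling cells, and Cdc20 (1.12). Of the earlier 96 calls, 41 (42.7%) were shared.

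**Figure D5:**
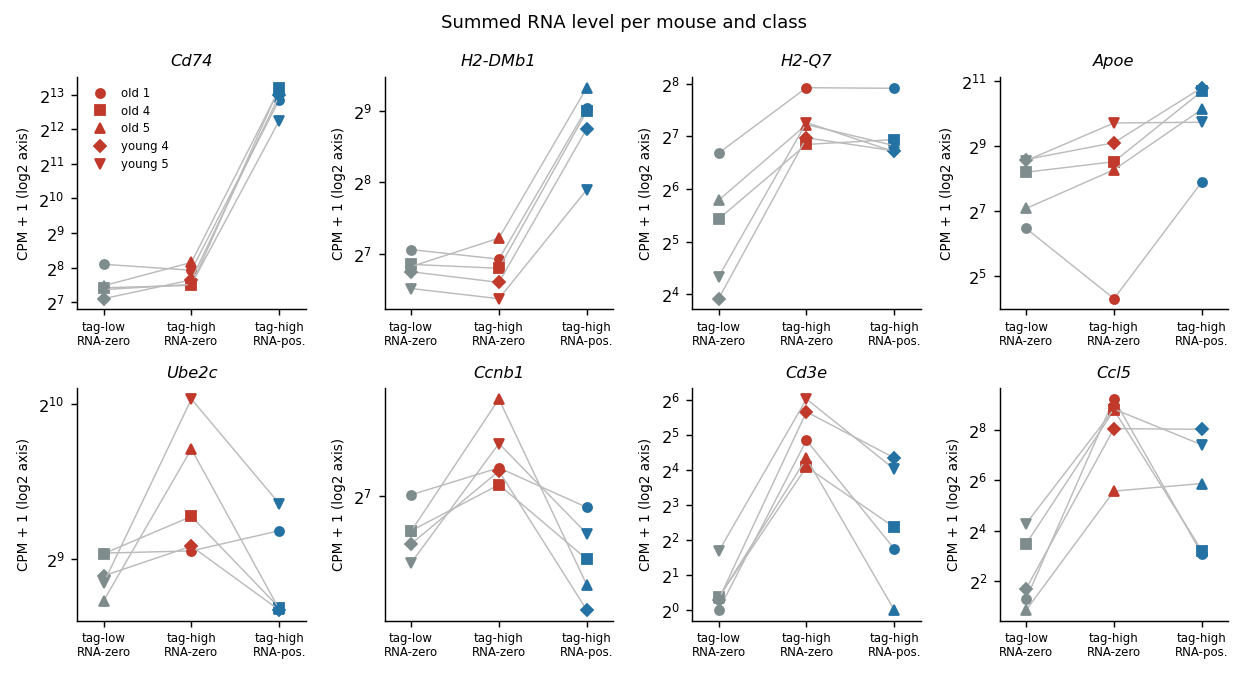
Summed RNA level in CPM plus 1 on a log2 axis of 8 genes in 3 cell classes, 1 symbol for each of 5 mice, joined by lines. Cd74 in the tag-high RNA-zero cells lies with the RNA-zero cells below the cutoff, and both classes were chosen to hold no chain gene UMI. Cd3e, at 16 CPM or more, and Ccl5, at 46.7 CPM or more, lie above every mouse of the RNA-zero cells below the cutoff.

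Between old (3 mice) and young (2 mice) tag-high RNA-zero cells, 1 of 5180 genes was called (0.0193%), and 516 had an unadjusted p under 0.05. It was Hpgd, which degrades prostaglandins, at 0, 1.78 and 2.75 CPM in the old mice and 66.3 and 70.3 CPM in the young (0, 1 and 1 against 40 and 12 UMIs, edgeR adjusted p = 1.1e-04). It entered the test through the young mice, and no fold is given over so few UMIs. The RNA-zero cells below the cutoff of old mice had 0 to 21.9 CPM and those of young mice 51.2 to 63.5 CPM. DESeq2 called 0 genes. With each cell thinned to 5000 UMIs Hpgd was not tested, and the 1 gene called was Chil3, a chitinase-like protein of monocytes, at 1.34 (edgeR adjusted p = 2.8e-04). It was at 0.72 (0.18) with all UMIs. Without cells of other lineages old 1 had under 5 cells and dropped out. Old 4 and old 5, with 29 and 19 cells, were then set against young 4 and young 5, with 31 and 10. In that fit 10 of 4872 genes were called (0.205%), 2 higher and 8 lower in old mice. Among them were Hpgd, Apoe (-1.20, edgeR adjusted p = 2.2e-04), Lyz2 (-0.56), the chemokine Ccl6 (-0.96) and S100a9 (-4.08). With all cells the edgeR calls numbered 4 without old 4, 18 without young 4 and 5 without young 5. In these last fits 1 young mouse is set against 3 old ones and is assumed to vary as they do.

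The age difference itself differed between these classes for 1 of 7066 genes (0.0142%), with 278 at an unadjusted p under 0.05. For H2-Q7 the log2 age difference was smaller in the tag-high RNA-zero cells by 1.69 (edgeR adjusted p = 0.0043). In the RNA-zero cells below the cutoff the old mice stood at 42.1 to 102 CPM and the young at 13.6 to 23.2 CPM, with no overlap. In the tag-high RNA-zero cells they stood at 114 to 241 and at 124 and 152 CPM, which overlapped. T or NK marked cells were 16.7%, 14.3% and 9.09% of these cells in old 1, old 4 and old 5. They were 21.95% and 23.1% in young 4 and young 5. Of 4 T or NK cell genes tested between the ages in these cells, 0 had a positive fold change and 0 were called (median -1.26). Their part in the H2-Q7 difference was not tested. Without cells of other lineages, an alternative chosen after the data were seen, 4 mice entered, the H2-Q7 difference was -0.99 ± 0.41 (edgeR adjusted p = 0.999) and 0 genes were called by edgeR, with 365 at an unadjusted p under 0.05. With all cells the calls numbered 0 without old 4 or without young 5, 24 without old 5 and 2 without young 4.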

How the data were processed

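The authors deposited UMI counts per gene, antibody tag and barcode, without normalization; per their methods and processing notes, reads were aligned with STAR 2.5.1 and counted with Cell Ranger 4.0.0, while the header of the female matrix names 3.1.0. Only the female pool holds surface tags, so the male pool was not used. Of 10433 female barcodes, 7 had 200 or fewer genes, 534 had 5% or more mitochondrial UMIs and 2516 had a leading hashtag under 70%, and 7492 were kept. The kept cells of a mouse summed to between 2823488 and 21708986 gene UMIs. Each hashtag gave the mouse, which served as replicate and, because both classes came from the same animal, as a block.

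Counts summed per mouse and class, with at least 5 cells in each, were tested with edgeR 4.0.16 (quasi-likelihood, TMM, filterByExpr, Benjamini-Hochberg at 0.05, R 4.3.3) after tests on simulated data. H2-Aa, H2-Ab1 and H2-Eb1 were left out. Shares, tags and depth were compared by two-sided exact permutation or sign-flip tests in SciPy 1.17.1. Named genes were the MHC-II pathway and surface panel genes and the 10 largest changes in each direction among called genes of at least 10 CPM in nearly all mice. A cell was marked for another lineage by a UMI of 3 or more genes of its list. Cell and gene lists, and the choice of cells, were made with earlier results of these data known. Alternatives were DESeq2 1.42.0, no count filter, no block, each mouse left out, thinning to 5000 UMIs, other tag cutoffs (5%, 20%, within each mouse, as a share of the tags), HTODemux singlets (Seurat 5.3.0), cells of 5000 to 15000 UMIs, and cells of other lineages left out. The cutoff within each mouse, the singlets without other lineages and the interaction without other lineages were added after the data were seen.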

Additional observations from a re-analysis of the deposited data

Results flagged for a closer look

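Old 1 stood apart from the other 4 old mice in the base from which the cells were drawn. RNA-zero cells were 9.54% of its cells and tag-high cells were 59.2%, each farther from the nearest mouse than Dixon's 95% critical value for 5 samples allows. Both shares rest on the tag and the chain genes that chose the cells, so this describes the base and supports no conclusion about the cells. In all, 14 groups of 5 mice were examined and 2 stood out, where chance alone marks about 1 in 20. Old 1 gave 6 of the 130 tag-high RNA-zero cells.

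The age difference of H2-Q7 differed between the tag-high RNA-zero cells and the RNA-zero cells below the cutoff, by -1.69 on the log2 scale (edgeR quasi-likelihood interaction test, adjusted p = 0.0043, 5 mice). Without cells of other lineages the difference was -0.99 (adjusted p = 0.999, 4 mice).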

How the results depend on the processing

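Against RNA-zero cells below the cutoff, the 33 gene calls became 90 with DESeq2, 159 with no count filter and 12 with no replicate block. They became 185 with the 5% highest cells (3 mice) and 132 with the 20% highest cells. The tag as a share of the 6 tags gave 63, and HTODemux singlets, chosen anew, gave 83. Cells of 5000 to 15000 UMIs gave 122, the cutoff within each mouse 146, and leaving out a mouse 20 to 81. Against RNA-positive tag-high cells, the 96 calls became 43 with DESeq2, 246 with no filter, 7 with no replicate block and 11 to 186 leaving out a mouse. Old against young, the 1 call became 0 with DESeq2, 32 with no filter, 10 without other lineages and 1 to 18 leaving out a mouse, and the interaction gave 4 with no filter, 0 without other lineages and 0 to 24 leaving out a mouse. The median log2 difference over the 5 other surface tags and the hashtag total, 1.12, was 0.45 with the tag share, 0.78 with singlets and 0.77 from medians. The log2 depth difference was 0.40 with the cutoff within each mouse (8 of 9 mice, exact permutation p = 0.0156). Reversed tag differences were CD115 at -0.35 (5% highest, 3 mice) and -0.040 (tag share), and Ly6C at -0.63 (tag share). Against RNA-positive cells, CD11c reversed to -0.071 without old 1 and -0.075 without young 5 (up to 0.35 without old 5). The old minus young share of RNA-zero cells, 3.97 percentage points, reversed to -4.53 with the cutoff within each mouse and was 2.3 to 5.38 leaving out a mouse. The cause of these changes was not tested. Of 10 mice, 5 had 5 or more cells, and exact sign-flip permutation tests over them cannot go below p = 0.0625.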
